A study of Homo sapiens with 12 samples.

Results

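The transcriptome described here is that of vehicle-treated HepG2 cells, the Control group, which is 3 of the 12 libraries of the study. HepG2 is an established human line from a liver tumour now classed as hepatoblastoma, and the labels call it a liver cancer cell. The Control libraries were chosen by their treatment label alone, and levels are given for all genes without use of any treated library. The other 3 groups, of 3 libraries each, received nobiletin at 5 µM, sorafenib at 2 µM or both, and are not used below. All cells grew in Eagle's minimal essential medium with serum, penicillin and streptomycin. The labels give neither the time in vehicle nor what the vehicle was. Nothing states that the 3 libraries came from separate cultures, so their spread may be technical.

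Hepatocytes make most plasma proteins, under a small set of transcription factors that includes HNF4A, the FOXA factors and the C/EBP factors. Adult hepatocytes also oxidise and conjugate drugs, take up bile acids and organic ions through dedicated carriers, and make urea and glucose. Liver tumours often switch on genes of the fetal liver, such as AFP and GPC3, and replace adult enzymes with forms used by dividing or fetal cells. HepG2 carries an activating mutation of CTNNB1, the gene for beta-catenin of the Wnt pathway.

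Levels are FPKM, the authors' counts scaled to gene length and to the size of the library, which allows a rough comparison of genes of different length. Gene length is that of all annotated exons of a gene together. A gene with many annotated exons beyond its main transcript therefore reads too low, and ranks and folds between genes depend on this. The translation factor gene EEF1A1, for example, had 731316 counts over 5948 bases, and ALB had 421755 counts over 3377 bases. A gene is called expressed where it has at least 1 FPKM in all 3 libraries. By this rule 11717 of 58735 genes (19.9%) and 10010 of 19951 protein-coding genes (50.2%) were expressed, and 4329 protein-coding genes had no count in any library. The list counts below are to be read against the 50.2%. The median level was 1.17 FPKM over all protein-coding genes and 7.02 FPKM over those expressed. Total counts were 23120392, 21057154 and 21646622, and the median coefficient of variation (CV) of an expressed gene across the libraries was 5.20%. A gene with 0 counts has an upper limit set by 3 counts over the 3 libraries, which covers counting error only. In RNA from a whole culture, fewer cells that express a gene and less RNA per cell cannot be told apart.

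The label of a liver cell was checked against cell type markers. All 12 hepatocyte markers were expressed, with summed levels between 8913 and 9412 FPKM per library. Of 10 cholangiocyte markers 7 were expressed, summing to between 214 and 224 FPKM. They included the transcription factor SOX9 at 102, 99.0 and 101 FPKM and the keratin KRT19 at 22.3, 21.5 and 19.7 FPKM, while KRT7 had no counts and the chloride channel CFTR had 1. Markers of stellate cells summed to at most 7.92 FPKM (2 of 10 expressed), of endothelial cells to at most 2.27 (1 of 10), of macrophages to at most 2.31 (1 of 10) and of lymphocytes to at most 2.48 (0 of 10). The pan-leukocyte gene PTPRC and the matrix gene DCN had no counts.

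**Figure D1:**
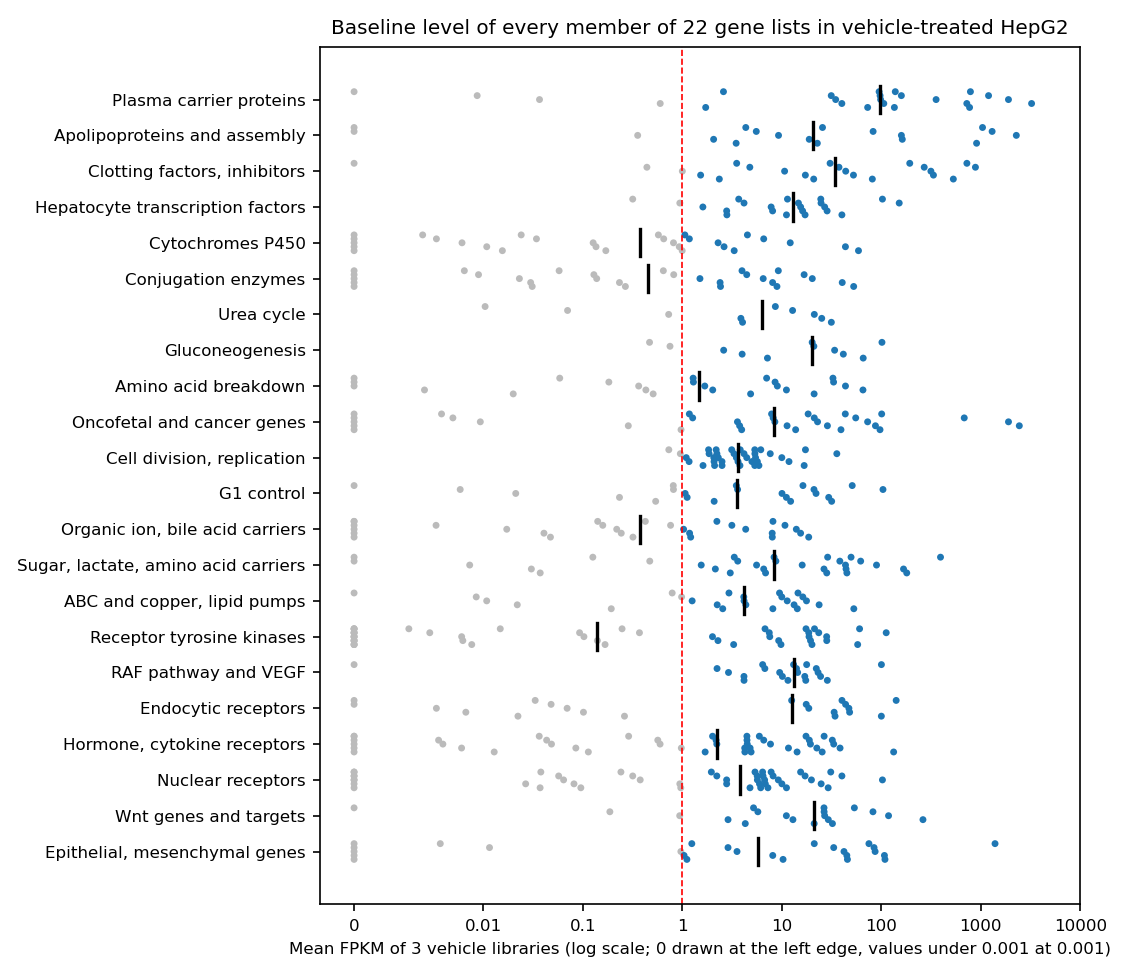
Each point is the mean FPKM of 1 gene over the 3 vehicle libraries on a log axis, with 22 gene lists in rows. Blue points have a mean of at least 1 FPKM (dashed line), grey points less, points at the left edge have no counts, and black bars are list medians. Plasma proteins reach the highest levels, while the medians of cytochromes P450, conjugation enzymes, organic ion carriers and receptor tyrosine kinases lie under 1 FPKM.

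Secreted liver proteins and oncofetal proteins led the nuclear protein-coding transcripts. IGFBP1, a liver protein that binds insulin-like growth factors (chr7:45888357-45893668, GRCh38), was the highest nuclear protein-coding gene at 4346, 4105 and 3996 FPKM. AHSG, which encodes the plasma protein fetuin-A (chr3:186612923-186621318), followed at 3342, 3227 and 3149 FPKM. AFP, the fetal counterpart of albumin (chr4:73431138-73456174), stood at 2542, 2438 and 2333 FPKM, above albumin itself. ALB (chr4:73397114-73421412) had 1958, 1875 and 1857 FPKM, so AFP exceeded ALB by 1.29-fold on the means, with no overlap of the libraries. The cell surface proteoglycan GPC3, a marker of liver cancer (chrX:133535745-133985895), had 1966, 1872 and 1856 FPKM. Across the libraries the values of ALB, GPC3 and the translation factor EEF1A1 overlapped (1897 ± 53.7, 1898 ± 59.5 and 1867 ± 69.5 FPKM, mean ± SD, n = 3). Within each library EEF1A1 was the lowest of these (1936, 1869 and 1797 FPKM), while the order of ALB and GPC3 changed between libraries. The apolipoprotein APOA2 (2275 ± 38.5 FPKM) and the iron store subunit FTL (2224 ± 58.4 FPKM) also overlapped, with APOA2 higher within each library. The 100 highest genes of any kind held 48.7% ± 0.879 of all FPKM, or 30.2% once genes of the mitochondrial genome were left out.

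**Figure D2:**
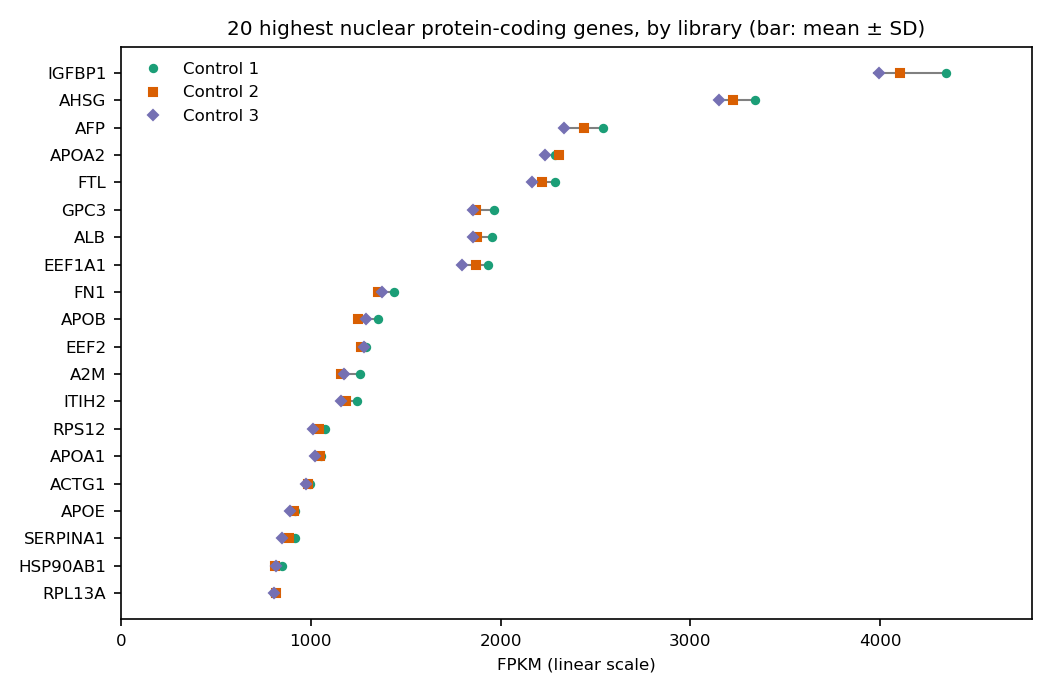
FPKM of the 20 highest nuclear protein-coding genes, on a linear axis, with 1 symbol per vehicle library and a bar for the mean ± SD (n = 3). IGFBP1, AHSG and AFP stand above the rest, and control 1 is the highest library for each of these 3 genes.

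The sequence before the start of 4 of these genes is shown to set 3 liver genes, whose windows carry letters that liver factors are known to read, beside a gene active in all cells. The windows are the 250 bases before the RefSeq start of each gene (GRCh38.p14), read on the gene's own strand, and 15532 protein-coding genes had such a window. Capitals mark GTTAAT (a motif of liver promoters), CAAAGTCCA (HNF4) and TTGCNNAA (C/EBP) on either strand, and TATAA where it begins 40 to 20 bases before the start on the gene's strand. TGTTTAC (FOXA) was also searched on both strands and is in none of the 4. The coordinates are chr4:73404037-73404286 for ALB, chr4:73435971-73436220 for AFP and chr3:186612810-186613059 for AHSG, all on the plus strand, and chr6:73521033-73521282 on the minus strand for EEF1A1, the gene active in all cells.
ALB: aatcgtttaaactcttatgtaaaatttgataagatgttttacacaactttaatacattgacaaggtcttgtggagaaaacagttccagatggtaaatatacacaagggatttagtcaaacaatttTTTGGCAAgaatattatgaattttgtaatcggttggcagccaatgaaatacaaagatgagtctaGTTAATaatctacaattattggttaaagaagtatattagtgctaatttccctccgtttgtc
AFP: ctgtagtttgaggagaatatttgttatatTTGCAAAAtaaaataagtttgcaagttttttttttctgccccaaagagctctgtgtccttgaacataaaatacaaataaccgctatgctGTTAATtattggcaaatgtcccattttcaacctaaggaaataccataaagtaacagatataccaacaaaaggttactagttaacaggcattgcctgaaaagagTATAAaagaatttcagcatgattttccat
AHSG: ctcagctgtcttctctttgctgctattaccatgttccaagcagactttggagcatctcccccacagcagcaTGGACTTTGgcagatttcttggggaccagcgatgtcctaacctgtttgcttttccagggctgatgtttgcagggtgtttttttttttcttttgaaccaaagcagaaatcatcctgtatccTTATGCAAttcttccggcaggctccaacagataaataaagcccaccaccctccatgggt
EEF1A1: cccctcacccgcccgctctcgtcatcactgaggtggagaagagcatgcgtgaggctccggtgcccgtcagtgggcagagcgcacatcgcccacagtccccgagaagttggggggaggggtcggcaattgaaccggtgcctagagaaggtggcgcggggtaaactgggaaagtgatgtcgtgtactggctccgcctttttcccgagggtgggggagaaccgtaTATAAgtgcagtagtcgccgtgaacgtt

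ALB held GTTAAT at -61 from its start and a C/EBP match at -125. AFP held the same letters at -132, a C/EBP match at -221 and TATAA at -29. AHSG held the HNF4 letters at -179 and a C/EBP match at -59, while EEF1A1 held only TATAA, at -28. The files place the starts of all 4 genes further upstream than RefSeq does, that of AHSG within its window, so the deposited levels cover longer gene models than these starts.

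Among members of the plasma protein lists at 10 FPKM or more, 32 had a window, and 8 of them (25%) held GTTAAT, against 4.87% of all 15532 windows. TGTTTAC was in 4 of them (12.5% against 2.25%), TTGCNNAA in 6 (18.8% against 7.24%), CAAAGTCCA in 1 (3.13% against 0.264%) and TATAA in 6 (18.8% against 5.66%). Members of these lists at any level had 49 windows, which include these 32. Shares over the 49 therefore cannot show whether the matches are particular to the higher members. They were 22.4% for GTTAAT, 10.2% for TGTTTAC, 20.4% for TTGCNNAA, 4.08% for CAAAGTCCA and 18.4% for TATAA. Genes with no count held GTTAAT in 8.62% and TTGCNNAA in 10.7%. The median window of members at 10 FPKM or more had 54.8% G and C and 4 CG dinucleotides, against 62.4% and 17 over all genes. By level, the median count of CG dinucleotides was 5 in protein-coding genes with no count, 21 in those at 1 to 10 FPKM, 23 at 10 to 100 FPKM and 20 at 100 FPKM or more. TATAA was found in 12.6% of genes with no count, 1.94% at 1 to 10 FPKM, 3.25% at 10 to 100 FPKM and 19.5% (34 of 174) at 100 FPKM or more. These are matches of letters, not bound sites.

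Most carriers, protease inhibitors and clotting proteins of plasma were expressed, and a few had no counts. Of 24 plasma carrier proteins 20 were expressed, with a median of 97.7 FPKM over the whole list. ITIH2, which binds hyaluronan, had 1245, 1186 and 1158 FPKM, and AMBP, the precursor of the inhibitor bikunin, had 801, 782 and 776 FPKM. GC, the vitamin D carrier, had 0 counts (a level of up to 0.0191 FPKM is allowed), and the histidine-rich glycoprotein HRG stayed at 0.0262, 0.0746 and 0.00899 FPKM. ITIH4 had 3 counts, but over 30% of its exonic bases lie in exons of another gene on its strand, so its low value is uncertain.

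Lipid carriers and clotting proteins showed the same split. Of 18 apolipoproteins and their partners 15 were expressed (median 20.8 FPKM), led by APOA2, by APOB, the backbone of very low density lipoprotein (1357, 1251 and 1289 FPKM), and by APOA1 of high density lipoprotein (1053, 1047 and 1021 FPKM). LPA, the apolipoprotein of lipoprotein(a), had no counts. Of 22 clotting factors and inhibitors 19 were expressed (median 34.0 FPKM). The antitrypsin gene SERPINA1 stood at 915, 883 and 851 FPKM and the fibrinogen chain FGA at 750, 724 and 699 FPKM. F9, the factor missing in haemophilia B, had 0 counts, which allows up to 0.0119 FPKM, and the plasmin precursor PLG had 0.740, 0.984 and 1.27 FPKM.

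The factors that direct hepatocyte genes were almost all expressed, 20 of 22 with a median of 13 FPKM. The C/EBP factor CEBPB was highest at 152, 153 and 148 FPKM, followed by NR0B2, a repressor of bile acid synthesis, at 103, 104 and 101 FPKM. HNF4A had 40.7, 40.5 and 39.3 FPKM and FOXA2 had 28.5 ± 1.28 FPKM (SD, n = 3). The pair of related receptors NR5A1 and NR5A2 stood in an order opposite to that known for adult liver. NR5A1, known for steroid-making glands (chr9:124481236-124507430), had 29.1, 27.8 and 30.6 FPKM. NR5A2, its relative in liver (chr1:200027602-200177424), had 0.374, 0.275 and 0.301 FPKM. The drug-sensing receptor NR1I3 lay at the threshold with 0.935, 0.871 and 1.02 FPKM.

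Cytochromes P450, the drug and sterol oxidases, had the lowest share of expressed members among the lists of liver functions. Of 30 members 8 were expressed, and the list median was 0.37 FPKM against 1.17 over all protein-coding genes. The highest was CYP27A1, a mitochondrial sterol hydroxylase (chr2:218781749-218815293), at 59.5, 59.4 and 57.7 FPKM. CYP2W1, known from fetal colon and tumours, followed at 41.0, 44.3 and 45.3 FPKM. CYP3A4, the main drug oxidase of adult liver, had 0.169, 0.210 and 0.130 FPKM, and CYP2E1, which oxidises ethanol, had 10 counts in all. CYP2B6, CYP4A11 and CYP26A1 had 0 counts, with upper limits between 0.0117 and 0.0153 FPKM. CYP2C19 had 0 counts as well, but shares over 30% of its exonic bases with another gene on its strand.

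Conjugation enzymes were expressed in some members of a family and not in others. Of 30 enzymes 13 were expressed (median 0.46 FPKM), a share of 43.3% against 50.2% of all protein-coding genes. The steroid sulfotransferase SULT2A1 had 53.4, 52.6 and 52.1 FPKM, and the glutathione transferase GSTO1 had 40.5, 41.2 and 39.5 FPKM. UGT2B10, a glucuronosyltransferase, had 22.3, 19.4 and 18.9 FPKM. The transferases GSTP1 and GSTM1 and the glycine conjugase GLYAT had 0 counts, with upper limits of 0.0239, 0.0181 and 0.0146 FPKM. All 5 UGT1A members of the list had between 0 and 9 counts. They share exons, so these values do not show that the UGT1A locus is silent.

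Nitrogen and amino acid metabolism was uneven. Of 10 urea cycle genes 7 were expressed (median 6.31 FPKM), with the aspartate carrier SLC25A13 at 32.7, 30.3 and 31.2 FPKM and ASS1, which joins citrulline to aspartate, at 25.2, 25.7 and 24.6 FPKM. CPS1, the entry enzyme of the cycle, had 3.96, 4.23 and 3.88 FPKM. OTC, which makes citrulline, had 8 counts in all and ARG1, which releases urea, had 0.606, 0.672 and 0.904 FPKM. Of 24 genes of amino acid breakdown 14 were expressed (median 1.48 FPKM), or 58.3% against 50.2% of all protein-coding genes. HGD, an enzyme of tyrosine breakdown, stood at 44.1, 44.8 and 41.8 FPKM, while TDO2, which opens the tryptophan ring in liver, had 0 counts (up to 0.00866 FPKM).

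**Figure D3:**
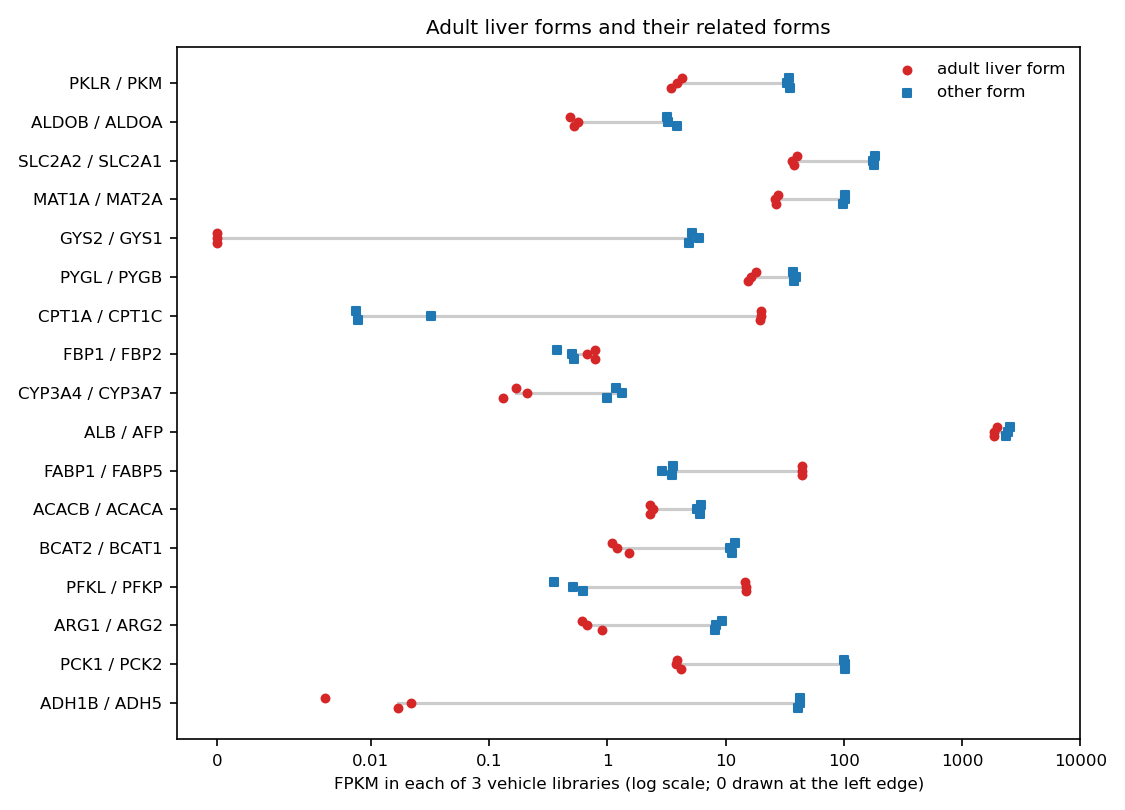
FPKM of 17 of the 20 pairs of related genes in each of the 3 vehicle libraries, on a log axis, with 0 at the left edge. Red circles are the form typical of adult liver and blue squares the related form, which is higher in all 3 libraries in 13 of the pairs drawn.

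Of 20 pairs that set a form typical of adult liver against a related form, the related form was higher in all 3 libraries in 16 and the adult liver form in 4. The pyruvate kinase PKM stood at 34.4 ± 0.918 FPKM (SD, n = 3) against 3.89 ± 0.407 for PKLR, the liver form. The mitochondrial carboxykinase PCK2 exceeded PCK1 of the cytosol by 25.5-fold (101 ± 1.18 against 3.99 ± 0.199 FPKM). Arginase showed the same order, with ARG2 11.8-fold above ARG1, and so did methionine adenosyltransferase, with MAT2A 3.76-fold above MAT1A.

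The remaining pairs varied in size. The glucose carrier SLC2A1 of most dividing cells (184, 176 and 180 FPKM) exceeded SLC2A2 of liver (39.9, 36.7 and 38.1 FPKM) by 4.70-fold. ADH5, the formaldehyde-handling alcohol dehydrogenase, had 42.0 ± 0.934 FPKM while ADH1B of adult liver had 10 counts in all. The adult liver form was higher for CPT1A, which admits fatty acids into mitochondria (19.9 ± 0.286 FPKM, 6 counts for CPT1C), for FABP1, which binds fatty acids (44.1 ± 0.0393 against 3.32 ± 0.378 FPKM for FABP5), and for the phosphofructokinase PFKL (29.5-fold over PFKP). FBP1 exceeded FBP2 in each library, but both stayed under 1 FPKM. In 3 pairs (ALDOA, GYS2 and CYP3A7) a gene shares over 30% of its exonic bases with another gene on its strand, and 13 of the other 17 pairs had the related form higher.

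Oncofetal genes were expressed in 23 of 34 cases with a median of 8.33 FPKM. Below AFP and GPC3 came PEG10, a retrotransposon-derived gene expressed from the paternal allele (chr7:94656325-94669695), at 703, 661 and 680 FPKM. SOX9, PEG3 and the chromatin protein HMGA1 lay between 86.1 and 102 FPKM in every library, and the mRNA-binding protein IGF2BP1 had 28.7, 28.8 and 28.6 FPKM. H19, a maternally expressed RNA of fetal liver, had 0 counts (up to 0.0157 FPKM by counting error alone, with the placement of its reads not examined here), and its imprinted neighbour IGF2 had 7.70, 7.63 and 8.32 FPKM, with over 30% of its exonic bases shared. The stem cell factor SALL4 stayed at 0.275, 0.401 and 0.181 FPKM and the cancer-testis genes MAGEA1 and MAGEA3 had no counts. TERT, the telomerase catalytic subunit, was at the threshold with 1.05, 0.841 and 1.02 FPKM.

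Wnt genes and their liver targets had a median of 21.1 FPKM, with 16 of 19 expressed. NOTUM, a secreted Wnt inhibitor that is itself a target (chr17:81952507-81961840), had 251, 268 and 267 FPKM. The target factor SP5 had 115, 119 and 120 FPKM, and the stem cell receptor LGR5 (chr12:71439770-71586310) had 54.8, 53.3 and 52.5 FPKM. AXIN2, a feedback inhibitor, had 21.1, 21.2 and 21.0 FPKM and CTNNB1 had 29.6, 29.2 and 29.1 FPKM. REG1A had no counts and the factor LEF1 had 0.181, 0.132 and 0.246 FPKM.

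Genes of division were widely expressed. Of 37 replication and mitosis genes 34 were expressed, the list median was 3.62 FPKM against 1.17 over all protein-coding genes, and 4 had a mean of 10 FPKM or more. The sliding clamp PCNA was highest at 35.5, 35.4 and 36.1 FPKM, followed by the helicase subunits MCM3 (16.8, 18.1 and 16.8 FPKM) and MCM7 (16.2, 17.6 and 16.5 FPKM). The proliferation marker MKI67 had 2.15, 2.27 and 2.47 FPKM. CENPE, a motor of chromosome alignment, stayed under the threshold at 0.850, 0.660 and 0.680 FPKM.

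Of 22 genes of G1 control 14 were expressed (median 3.53 FPKM). MYC had 108, 101 and 103 FPKM and cyclin D1, CCND1, had 51.0, 50.8 and 51.1 FPKM. The related cyclins differed from it, with CCND2 at 10 counts in all and CCND3 at 0.852, 0.935 and 0.651 FPKM. The inhibitors CDKN1B and CDKN1A lay between 21.1 and 31.6 FPKM, and CDKN1C had 0 counts (up to 0.0184 FPKM).

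Of 30 uptake and exchange carriers for bile acids, organic ions, nucleosides and peptides, a list that includes carriers known from kidney and intestine, 12 were expressed (median 0.37 FPKM). SLC10A1, the bile acid importer and hepatitis B virus receptor (chr14:69775417-69797289), had 0.280, 0.230 and 0.444 FPKM. SLCO1B1, the main organic anion importer (chr12:21131202-21239246), had 0 counts, which allows up to 0.0204 FPKM. The members that were expressed included the drug and cation exporter SLC47A1 (18.1, 18.2 and 19.4 FPKM), SLCO4A1 (16.2, 15.5 and 14.6 FPKM) and the cation carrier SLC22A3 (14.3, 13.7 and 13.9 FPKM).

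Carriers of sugars, lactate and amino acids stood higher, with 24 of 31 expressed and a median of 8.34 FPKM. The neutral amino acid carrier SLC38A2 led at 408, 385 and 388 FPKM, then SLC2A1 and SLC7A5, a large neutral amino acid carrier (167, 166 and 168 FPKM). The fructose carrier SLC2A5 and the sodium-glucose carrier SLC5A1 had no counts. Of 25 ATP-driven pumps 18 were expressed (median 4.17 FPKM). ABCC2, the canalicular anion pump, had 54.1, 52.4 and 52.1 FPKM and ABCB1, the multidrug pump, had 24.1, 23.4 and 23.5 FPKM. ABCB11, the canalicular bile salt pump, had 0 counts, with an upper limit of 0.00591 FPKM.

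Sorafenib, given to other groups of the study, blocks RAF and several receptor kinases, so the level of its known targets and of the proteins that handle it is shown for vehicle-treated cells. Of these 18 genes 7 were expressed. Among the targets, BRAF had 2.25, 2.15 and 2.28 FPKM and the receptor PDGFRB had 3.41, 3.19 and 3.22 FPKM. The VEGF receptors KDR and FLT1 and the receptors KIT, FLT3 and RET had 0 counts, with upper limits between 0.00363 and 0.0110 FPKM, and FLT4 had 1 count. Of the handling proteins, CYP3A4, which oxidises sorafenib, was low as given above, and the importer SLCO1B3 (4 counts) was under the threshold. UGT1A9, which conjugates it, had 0 counts, and UGT1A9 and SLCO1B3 share over 30% of their exonic bases with other genes on their strand. The export pumps ABCC2, ABCB1, ABCC3 (4.0, 4.39 and 4.64 FPKM) and ABCG2 (2.84, 2.37 and 2.42 FPKM) were all expressed.

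**Figure D4:**
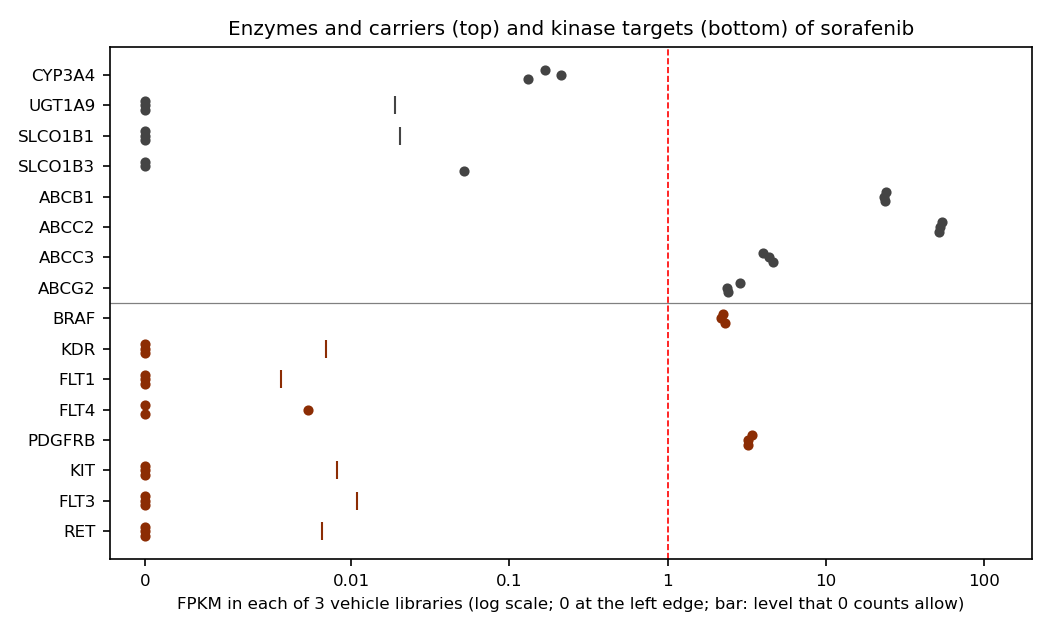
FPKM of 16 sorafenib-related genes in each of the 3 vehicle libraries on a log axis, with 0 at the left edge and short bars at the level that 0 counts allow. Export pumps, BRAF and PDGFRB lie above the dashed line at 1 FPKM, and the 10 other genes drawn lie under it.

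Over the wider family, 20 of 47 receptor tyrosine kinases and partners were expressed and 15 had no count (median 0.14 FPKM). The share expressed was 42.6%, against 50.2% of all protein-coding genes. FGFR3 (chr4:1793293-1808872) was highest at 111, 113 and 112 FPKM. The neuregulin receptor ERBB3 had 60.4, 59.8 and 61.0 FPKM and FGFR4, the FGF19 receptor of liver, had 57.8, 58.5 and 57.1 FPKM. FGFR2 had 0.355, 0.442 and 0.312 FPKM, and MET, the receptor of hepatocyte growth factor, had 19.6, 19.8 and 18.8 FPKM. Downstream, 20 of 21 genes of the RAF pathway and VEGF ligands were expressed (median 13.1 FPKM), among them the ERK-induced factor ETV4 at 99.0, 102 and 99.5 FPKM. VEGFC had no counts.

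Other receptor families also held both high members and members without a count. Of 21 endocytic receptors 11 were expressed (median 12.5 FPKM), and both subunits of the asialoglycoprotein receptor of hepatocytes were high, ASGR2 at 143, 138 and 141 FPKM and ASGR1 at 98.0, 102 and 100.0 FPKM. Of 45 hormone and cytokine receptors 26 were expressed (median 2.22 FPKM), led by TGFBR2, a TGF-beta receptor, at 140, 129 and 130 FPKM. The growth hormone receptor GHR had 0 counts (up to 0.0069 FPKM), and GCGR, the glucagon receptor, had 0.109, 0.175 and 0.0562 FPKM. Of 48 nuclear receptors 28 were expressed (median 3.78 FPKM), while the progesterone receptor PGR had 0 counts. The shares expressed in these lists, 52.4%, 57.8% and 58.3%, lay near the 50.2% of all protein-coding genes.

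Of 11 genes used by viruses to enter liver cells 7 were expressed. The hepatitis C virus factors SCARB1 (33.9, 33.2 and 33.5 FPKM) and CLDN1 (33.6, 34.1 and 31.8 FPKM) were among them, but CD81 (chr11:2376177-2397419), another entry factor of that virus, had 0 counts, which allows up to 0.00616 FPKM. Of 26 epithelial and mesenchymal genes 17 were expressed (median 5.82 FPKM), with fibronectin FN1 at 1441, 1354 and 1374 FPKM and KRT18 at 111, 106 and 105 FPKM. VIM, the intermediate filament of mesenchymal cells, had 4 counts, and the factors SNAI2 and TWIST1 had none.

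The spread between the 3 vehicle libraries sets how finely these levels can be read. A chi-square test of the counts of each gene against TMM-scaled library sizes called 2542 of 15875 genes (16.0%) different among the libraries beyond counting noise (Benjamini-Hochberg adjusted p under 0.05). This compares libraries, not conditions. The called genes had more counts than the rest (median 648 against 305 per library) and a median CV of 10.6%, and 632 of them had a CV of at least 25%. The common biological coefficient of variation from edgeR was 4.49%. Every pair of libraries differed by more than sampling noise (chi-square divided by its degrees of freedom, 2.96 to 4.17 with TMM scaling and 2.78 to 3.88 with scaling by total counts), so each was kept as a library of its own.

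**Figure D5:**
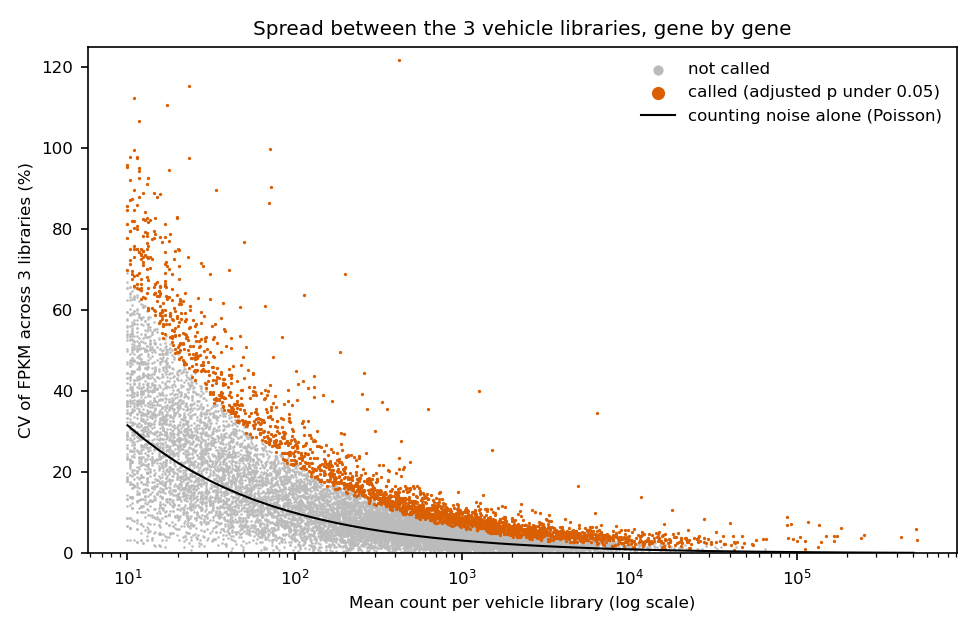
CV of FPKM across the 3 vehicle libraries against the mean count per library (log axis), 1 point per gene tested. Orange points were called different among the libraries, and the line is the CV that counting noise alone would give, so that called genes of high count have small CVs.

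Plasma protein genes tended to be highest in control 1. Of 43 plasma protein genes at 10 FPKM or more 33 had their highest FPKM in control 1, against 54.6% of the 3704 nuclear protein-coding genes at that level. The 33 are 76.7% of the 43. With TMM-scaled counts the shares were 62.8% (27 of 43) and 43.9%, and with counts scaled by total 53.5% (23 of 43) and 29.7%. The shares of both sets thus depend on the scaling, and that of the plasma protein genes was higher on each scale. The median ratio of control 1 to control 3 in FPKM was 1.05 for the plasma protein genes and 1.03 for the nuclear protein-coding genes at that level, and with counts scaled by total it was 1.02 and 0.993. Mitochondrial mRNAs moved in the same order, at 24.1%, 23.2% and 22.4% of FPKM, and their part in this was not tested.

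The 10 protein-coding genes with the largest relative overdispersion (chi-square per degree of freedom over the mean count), among called genes with a mean of at least 1 FPKM, were U2AF1L5, AC126755.2, SMN1, TMEM88, MED27, CTF1, FLRT1, LY96, SERF1B and CBS. U2AF1L5, a copy of a splicing factor gene, had 0.532, 0.488 and 4.13 FPKM, high in control 3 only. CBS, which starts the conversion of homocysteine to cysteine, had 7.03, 6.11 and 12.4 FPKM, also highest in control 3. SMN1, the gene lost in spinal muscular atrophy, had 3.28, 5.76 and 2.48 FPKM, highest in control 2. Of these 10 genes 5 share at least 50% of their 32-base words with other genes. The counts of these 5 thus depend on how reads with several matches were treated. Of the 650 genes chosen for the lists and pairs, 23 share as much, and the number over all genes was not computed. Adding the near-identical copy left a CV of 40.3% for CBS with CBSL, 90.7% for U2AF1L5 with U2AF1 and 20.8% for SMN1 with SMN2.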

How the data were processed

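RNA of HepG2 cells was sequenced, and the 3 Control libraries were selected by their titles. Alignment to GRCh38 used HISAT2 2.0.5 and counting used featureCounts 1.5.0-p3, per the submitters' processing notes. Whether libraries were made by poly(A) capture or after rRNA removal is left unresolved by the protocol in the labels. Strand setting, read filters and the treatment of reads with several matches, which affect overlapping and duplicated genes, were not stated in those notes or labels. The authors deposited raw counts and FPKM per gene for 58735 genes. Each deposited FPKM value equalled the count over gene length and total counts, times 1 factor per library (1.02, 0.994 and 0.985). All 58676 identifiers found in GENCODE 29 had the same start and end there.

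Levels are the deposited FPKM, given per library or as mean ± SD. Counts were scaled by TMM and their dispersion estimated with edgeR 4.0.16 in R 4.3.3, and the chi-square test used genes with a mean of at least 10 counts (Python 3.11.15, scipy 1.17.1, Benjamini-Hochberg over all genes tested). The chi-square test was also run on simulated counts with known changes in some genes. Those counts had counting noise only, unlike these libraries, so that run shows only how the test behaves under counting noise. Exon overlap and shared 32-base words came from GENCODE 29, and promoter windows and motifs from RefSeq (GRCh38.p14), matched by symbol. The 30 lists (623 symbols, all found) and 20 pairs were chosen with earlier results of these data known, so no list was tested. Named genes were the 20 highest nuclear protein-coding genes, up to 6 highest members of a list, its members under 1 FPKM or nearest to it, all pair members, all sorafenib-related genes and the 10 of largest relative overdispersion. AXIN2, MKI67, MET, IGF2, IGF2BP1 and the copies CBSL, U2AF1 and SMN2 fall outside this rule and were chosen after their values were seen. Alternatives (other thresholds, TPM, other scalings, leaving out each library) are in the closing section. No Control library was left out. Some genes of the lists and pairs are not reported here. The treated libraries were not used here.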

Additional observations from a re-analysis of the deposited data

How the results depend on the processing

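No paired analysis was possible because the levels come from 1 group, with no contrast between groups. The number of expressed genes, 11717, was 6428 with a threshold of 5 FPKM and between 11531 and 14886 under the other alternatives (a threshold of 0.5 FPKM or on the mean, TPM, no library factor, at least 10 counts, leaving out each library, and leaving out genes with overlapped exons). Expressed list members, 384 of 623, ranged from 273 to 428, and the 16 pairs with the related form higher stayed 16 in CPM and were 13 of 17 without overlapped pairs. A pair was counted where the lowest value of the related form exceeded the highest value of the adult form over the 3 libraries. Leaving out a library cannot undo this, so that alternative could not lower the 16. TPM keeps the order of genes within a library and scales the libraries by similar factors, so it is a weak check. The 2542 genes called among libraries were 940 to 1771 with 1 library left out (940 without control 3, 1063 without control 1 and 1771 without control 2), where fewer samples are tested, and 2160 to 2600 under the other alternatives. The common biological coefficient of variation was 3.91% to 5.11% without 1 library. The share of the 100 highest genes was 30.2% without the mitochondrial genome and 30.02% of raw counts, and 48.3% to 49.2% without 1 library. The median SD of log2(FPKM + 1) was 0.0625 over expressed genes, 0.0736 with a pseudocount of 0.1, 0.0750 with no filter on low values, and 0.0501 to 0.0556 without 1 library. TPM moved 66 of 74 single genes by more than their spread, since TPM equals FPKM times 3.23 to 3.40 here. The exclusion of overlapped genes was chosen after seeing the data.

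Depth limits the lowest levels. Of protein-coding genes, 385 passed 1 FPKM in only 1 or 2 libraries. Of the 1245 protein-coding genes with 30% or more of their exonic bases in exons of another gene on the same strand, 12.5% were expressed and 43.9% had no count, against 52.8% and 20.3% of the 18160 with little overlap on either strand, so a low value in an overlapped gene is uncertain. The cause was not tested.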

Other observations

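Genes outside the nuclear protein-coding set made up part of the expressed transcriptome. Of 7629 lincRNA genes 311 were expressed, and of 5583 antisense genes 402. The highest gene of another biotype was the mitochondrial ribosomal RNA MT-RNR2 at 7725, 7294 and 7050 FPKM, followed by the mitochondrial tRNA gene MT-TC at 3357, 3352 and 3154 FPKM. Next came the other mitochondrial ribosomal RNA, MT-RNR1, at 2337, 2244 and 2142 FPKM. By counts the order was reversed, at 14282 for MT-TC (66 bases) and 140779 for MT-RNR1 (954 bases). The high FPKM of such short tRNA genes thus rests on their length. Below these in FPKM came the tRNA gene MT-TN (73 bases, 9604 counts) and RPS28P7, a processed pseudogene that shares 100% of its 32-base words with other genes. Its level was 1705, 1722 and 1685 FPKM, and its reads cannot be told from those of the genes it shares these words with. MT-CO1, a subunit of cytochrome c oxidase, was the highest gene of all at 16134, 15344 and 14293 FPKM, and mitochondrial mRNAs held 23.2% ± 0.834 of FPKM but only 6.49% to 7.11% of counts. MT-CO1 was chosen after its value was seen.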
